A study of Mus musculus with 24 samples.

Results

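Bdnf, its relative neurotrophin 3 and the receptors and sorting proteins that act with them were followed through hippocampal mRNA sequencing of 24 female mice. The 7 genes Bdnf, Ntf3, Ntrk2, Ntrk3, Ngfr, Sort1 and Vgf were chosen by name from the 46983 genes of the count table, and all 7 had enough reads to be tested. Every mouse was on a C57BL/6 background and carried loxP sites in both copies of Fkbp5, the gene of the stress-regulated co-chaperone FKBP51. Fkbp5lox/lox mice had no Cre recombinase and served as littermate wild types. Fkbp5Nex mice also carried Nex-Cre, which removes Fkbp5 from glutamatergic forebrain neurons from embryonic life onwards but spares the dentate gyrus. Early life stress (ELS) consisted of limited bedding and nesting material from postnatal day 2 to 9, whereas control litters had standard housing. The 4 groups of 6 mice were Fkbp5lox/lox control, Fkbp5lox/lox ELS, Fkbp5Nex control and Fkbp5Nex ELS. Behavioural tests began at 6 months of age, and punches of 1 mm diameter from dorsal and ventral hippocampus were taken afterwards. The litter of each mouse was not given in the labels, so the tests treated the mice as independent.

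Neurotrophins are secreted growth factors that are made as larger precursors and cleaved to mature forms. Mature BDNF binds the receptor tyrosine kinase TrkB (Ntrk2) and neurotrophin 3 binds chiefly TrkC (Ntrk3), which promotes neuronal survival and synaptic plasticity. The precursors bind the p75 neurotrophin receptor (Ngfr) together with sortilin (Sort1), a Vps10p domain receptor that also directs proBDNF into the regulated secretory pathway. Vgf encodes a secreted neuropeptide precursor that neurotrophins and neuronal activity induce. In the hippocampus, dentate granule cells are a classical site of neurotrophin 3 expression, and TrkB and TrkC both exist in full-length and in truncated forms that lack the kinase.

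Between 18347283 and 26555623 reads were counted per mouse, and 22868 to 23987 genes had at least 1 read. No pair of mice had identical counts. The deletion was visible in every mouse. Fkbp5 lay between 47.7 and 63.4 CPM (counts relative to the TMM-scaled library size) in Fkbp5lox/lox mice and between 8.71 and 26.5 CPM in Fkbp5Nex mice, a log2 fold change of -2.03 (SE 0.09, adjusted p = 2.81e-12, edgeR quasi-likelihood test). All listed markers of excitatory neurons (4 of 4), of CA1 (5 of 5), of CA2 and CA3 (8 of 8) and of the dentate gyrus (7 of 7) had enough reads to be tested. Markers of other tissue varied widely between punches, and the summed choroid plexus markers ranged from 15.1 to 4620 CPM. Of the markers of cholinergic neurons, the classical p75-expressing cells of the basal forebrain, Chat had at most 5 reads, Slc18a3 at most 2 and Isl1 at most 16, while Slc5a7 passed the filter on low counts, and the summed level of these 4 markers was 0.46 to 2.75 CPM. Fkbp5Nex control mouse 12 had the highest astrocyte score, Fkbp5Nex control mouse 52 deviated from its group in step with gene length (Spearman's rho -0.42 across genes, against -0.18 to 0.20 in the other mice), and Fkbp5lox/lox ELS mouse 8 had the lowest CA1 score. Values without these 3 mice are given beside some of the results that change with them. Mouse 8 also had the highest dentate gyrus (2.2) and thalamus (1.99) scores of all 24 mice. Mouse 12 also had the highest microglia (2.44), endothelial (2.01) and meningeal and mural (2.15) scores. Its dentate gyrus score (1.25) and its Fkbp5 level (26.5 CPM) were the highest among Fkbp5Nex mice.

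Bdnf (ENSMUSG00000048482) lies at chr2:109674700-109727007 on the plus strand of GRCm38, and 11 transcripts are annotated, with alternative first exons before a shared exon that holds the coding sequence of the mature protein. An antisense gene, Gm45346, overlaps 14.4% of its exon bases. Ntf3 (ENSMUSG00000049107, chr6:126101412-126166910, minus strand), Ngfr (ENSMUSG00000000120, chr11:95568818-95587735, minus strand) and Vgf (ENSMUSG00000037428, chr5:137026392-137033351, plus strand) overlap no other annotated gene. Ntrk2 (ENSMUSG00000055254, chr13:58806569-59133970, plus strand) and Ntrk3 (ENSMUSG00000059146, chr7:78175959-78738012, minus strand) each overlap 4 genes, none of them in an exon. Sort1 (ENSMUSG00000068747, chr3:108284082-108361511, plus strand) shares 4.47% of its exon bases with the antisense gene Gm12523. The strand setting of the counting and its handling of reads over overlapping genes are not given in the sources used here. Whether reads in the bases that Bdnf and Sort1 share with antisense genes were counted for them, for the partners or not at all is thus not known. Counts per gene also do not separate the first exons of Bdnf or the truncated and full-length forms of Ntrk2 and Ntrk3.

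Promoter windows of 300 bases, from 250 before to 50 after an annotated RefSeq start (GRCm38.p6), covered 4 of the 7 genes with 11 windows, 7 of them for Bdnf. They were searched on both strands for the palindromic cAMP response element TGACGTCA, its shortened form CGTCA, the E-box CACGTG and the general E-box core CANNTG, which includes CACGTG. TGACGTCA was in none of the 11 windows and in 1.79% of the 32851 windows of all genes. CGTCA was in 1 of the 7 Bdnf windows and in 20.8% of all windows. CACGTG was in 1 of the 2 Ntf3 windows and in 7.15% of all windows, and the frequent core CANNTG was in 10 of the 11 windows against 72.3% of all. The Bdnf window is shown because Bdnf is a classical target of the transcription factor CREB, and the Ntf3 window because Ntf3 varied most between mice. Capitals mark CGTCA in the former (chr2:109692186-109692485, plus strand, first base at position -35 from the start) and CACGTG in the latter (chr6:126166695-126166994, minus strand, position -231).
Bdnf: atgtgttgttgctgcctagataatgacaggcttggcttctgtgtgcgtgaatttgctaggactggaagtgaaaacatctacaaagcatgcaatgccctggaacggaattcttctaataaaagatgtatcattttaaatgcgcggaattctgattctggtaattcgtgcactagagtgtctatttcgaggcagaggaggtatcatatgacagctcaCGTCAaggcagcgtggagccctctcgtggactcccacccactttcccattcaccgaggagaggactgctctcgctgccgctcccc
Ntf3: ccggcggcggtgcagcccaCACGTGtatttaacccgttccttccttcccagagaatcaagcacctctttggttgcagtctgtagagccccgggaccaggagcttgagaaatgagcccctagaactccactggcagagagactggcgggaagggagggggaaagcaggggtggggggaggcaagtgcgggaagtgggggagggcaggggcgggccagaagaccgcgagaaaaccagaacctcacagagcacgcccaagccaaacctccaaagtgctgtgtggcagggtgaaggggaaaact

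Per exon length the 7 genes spanned more than 2 orders of magnitude. In CPM per kilobase of exon (RPKM, mean ± SD, n = 24 mice), Sort1 was at 91.9 ± 9.35, Vgf at 41.7 ± 7.43 and Ntrk2 at 28.0 ± 2.23. Ntrk3 followed at 8.71 ± 0.866, Bdnf at 7.38 ± 1.53, Ntf3 at 3.18 ± 1.71 and Ngfr at 0.556 ± 0.16. Each gene was above the next in 24, 23, 24, 19, 23 and 24 of 24 mice, so Ntrk3 and Bdnf were the closest neighbours, with a median ratio of 1.28 and a range from 0.536 to 2.05. With the length of the longest coding transcript in place of all exons, Ntrk2 rose to 61.7 RPKM and stood above Vgf (43.7 RPKM) in 23 of 24 mice. Ntf5, the gene of another TrkB ligand, had 4 to 16 reads per mouse and was not tested.

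**Figure D1:**
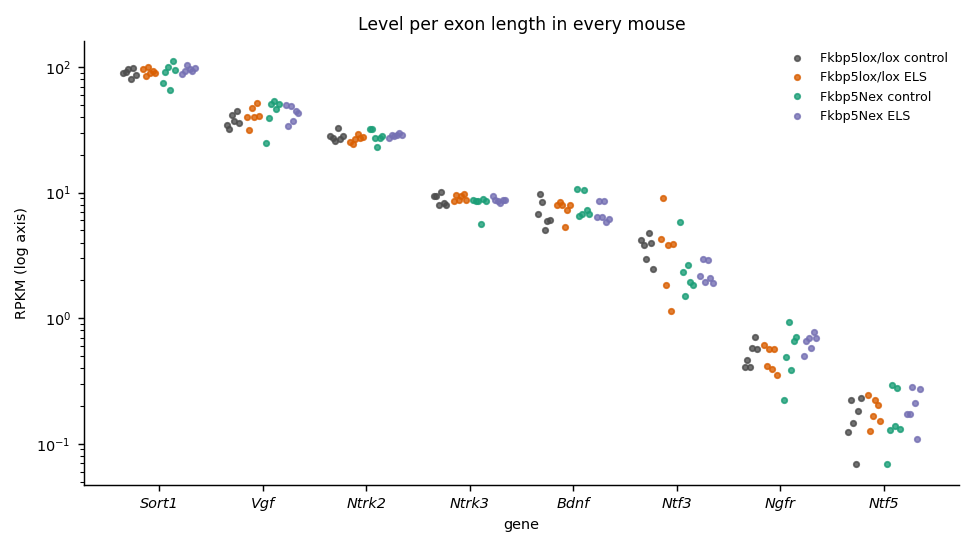
RPKM (log axis) of the 7 genes and of Ntf5, with 1 point per mouse and colours for the 4 groups of 6. Sort1, Vgf and Ntrk2 lie above 20 RPKM in every mouse and Ngfr below 1, while Ntf3 spans from 1.14 to 9.05 RPKM.

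The spread between mice separated the genes further. The coefficient of variation of CPM over the 24 mice was 7.99% for Ntrk2, 9.94% for Ntrk3 and 10.2% for Sort1, below the median of 12.5% of all tested genes. It was 17.8% for Vgf, 20.7% for Bdnf, 28.7% for Ngfr and 53.9% for Ntf3. Ngfr rested on 17 to 62 reads per mouse and Ntf3 on 47 to 419, so counting error adds to the spread of both, most for Ngfr.

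Bdnf, the main activity-regulated ligand of TrkB, had in Fkbp5lox/lox control mice a lowest, median and highest level of 31.1, 39.7 and 60.6 CPM. The corresponding values were 33.3, 49.2 and 52.2 CPM in Fkbp5lox/lox ELS mice, 40.3, 43.4 and 66.6 CPM in Fkbp5Nex control mice, and 36.3, 40.0 and 53.5 CPM in Fkbp5Nex ELS mice. The 4 groups overlapped throughout, and the highest values came from Fkbp5Nex control mice 12 and 52, at 66.6 and 65.2 CPM. Bdnf was not called for genotype (mean 46.8 ± 10.4 CPM in 12 Fkbp5Nex against 44.9 ± 8.86 CPM in 12 Fkbp5lox/lox mice, log2 fold change 0.13, SE 0.06, 95% CI 0.01 to 0.25, adjusted p = 0.411, edgeR). Among control mice the genotype difference was 0.20 (SE 0.08, adjusted p = 0.508, edgeR), and without the 3 mice it was 0.19 with surrogate variables (SE 0.11) and -0.04 without them (SE 0.15). Single mice also moved these values, since leaving out Fkbp5lox/lox control mouse 74 took the difference among control mice from 0.20 to 0.05 and leaving out Fkbp5lox/lox control mouse 28 took that over both conditions from 0.13 to 0.07. Over both housing conditions, leaving out the 3 mice gave 0.11 for genotype with and -0.05 without surrogate variables. For ELS the log2 fold change of Bdnf was 0.14 (95% CI -0.04 to 0.32) in Fkbp5lox/lox and 0.00 (95% CI -0.18 to 0.19) in Fkbp5Nex mice, with an interaction of 0.14 (95% CI -0.11 to 0.39, adjusted p = 0.999, edgeR).

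Ntf3, the gene of neurotrophin 3, had a lowest, median and highest level of 4.19, 6.71 and 8.13 CPM in Fkbp5lox/lox control mice and of 1.96, 6.62 and 15.5 CPM in Fkbp5lox/lox ELS mice. In Fkbp5Nex control mice these were 2.58, 3.65 and 9.95 CPM and in Fkbp5Nex ELS mice 3.29, 3.64 and 5.07 CPM. Both Fkbp5Nex medians lay below both Fkbp5lox/lox medians, but the groups overlapped. The extremes were Fkbp5lox/lox ELS mice 8 (15.5 CPM) and 72 (1.96 CPM) and Fkbp5Nex control mouse 12 (9.95 CPM). The log2 fold change for genotype was -0.35 (SE 0.15, 95% CI -0.67 to -0.04, unadjusted p = 0.0308, adjusted p = 0.392, edgeR), and Ntf3 was not called. The estimate was -0.62 without surrogate variables (SE 0.25, adjusted p = 0.695, edgeR), and without the 3 mice it was -0.40 with surrogate variables (adjusted p = 0.5, edgeR) and -0.66 without them (adjusted p = 0.186, edgeR). In control mice alone it was -0.57 (SE 0.22, adjusted p = 0.468) and in ELS mice alone -0.14 (SE 0.23, adjusted p = 0.945, both edgeR). Without surrogate variables the order was the opposite, with -0.46 (SE 0.35) in control and -0.79 (SE 0.36, unadjusted p = 0.0366, adjusted p = 1.0, edgeR) in ELS mice. Leaving out Fkbp5lox/lox ELS mouse 4 moved the value over both conditions from -0.35 to -0.17 and that in ELS mice to 0.19. For ELS it was -0.40 (95% CI -0.87 to 0.07) in Fkbp5lox/lox and 0.03 (95% CI -0.47 to 0.53) in Fkbp5Nex mice. The interaction was -0.42 (95% CI -1.09 to 0.25, adjusted p = 0.999, edgeR) and took the opposite sign without surrogate variables (0.33).

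Dentate gyrus markers moved with Ntf3 between genotypes. All 7 markers (Prox1, Dsp, C1ql2, Calb1, Stxbp6, Npnt and Tdo2) had a negative log2 fold change for genotype. The median was -0.50 against -0.002 over all genes tested. Of the 7 markers, 3 were called lower, against 0.136% of all genes called in either direction. Their summed level ranged from 374 to 649 CPM in Fkbp5lox/lox control, 325 to 1140 CPM in Fkbp5lox/lox ELS, 228 to 811 CPM in Fkbp5Nex control and 252 to 586 CPM in Fkbp5Nex ELS mice. Without surrogate variables the median was -0.73 and none of the 7 was called, against 0.0185% of all genes. In these fits 5 of the 7 had an unadjusted p below 0.05, against 6.63% of all genes. For the interaction the median of the markers was -0.36 with and 0.31 without surrogate variables, the same pair of signs as that of Ntf3. The part of the dentate gyrus share of each punch in the Ntf3 values was not tested. In these bulk samples fewer cells of a type and less RNA per cell cannot be told apart.

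**Figure D2:**
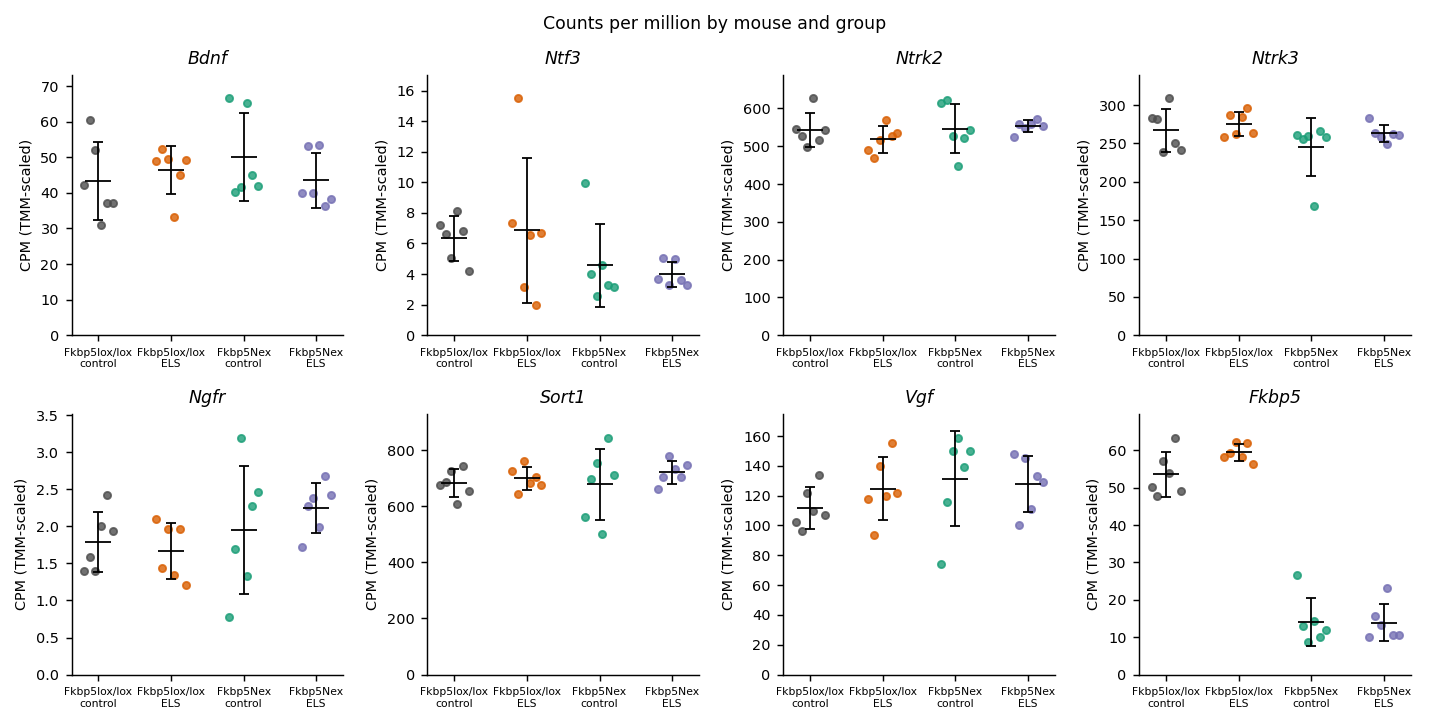
CPM (linear axis from 0) of the 7 genes and of Fkbp5 in every mouse, by group. Points are mice, the horizontal bar is the group mean and the whisker is 1 SD of 6 mice. The groups overlap for all 7 genes, while Fkbp5 separates the genotypes.

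Ntrk2, which encodes TrkB, was the steadiest of the 7 genes. Its lowest, median and highest level was 497, 534 and 627 CPM in Fkbp5lox/lox control, 469, 521 and 569 CPM in Fkbp5lox/lox ELS, 447, 535 and 622 CPM in Fkbp5Nex control and 525, 556 and 573 CPM in Fkbp5Nex ELS mice. The log2 fold change was 0.05 for genotype (95% CI -0.01 to 0.11) and -0.02 for ELS (95% CI -0.08 to 0.05). On the linear scale these intervals held factors from 1.0 to 1.08 and from 0.94 to 1.04. For ELS the value was -0.01 (95% CI -0.10 to 0.08) in Fkbp5lox/lox and -0.02 (95% CI -0.12 to 0.07) in Fkbp5Nex mice. With the surrogate variables both genotypes thus had intervals within 0.12 of 0 on the log2 scale. Without them the ELS value was -0.07 (95% CI -0.21 to 0.08) in Fkbp5lox/lox and 0.02 (95% CI -0.13 to 0.16) in Fkbp5Nex mice.

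Ntrk3, which encodes TrkC, reached a lowest, median and highest level of 239, 266 and 309 CPM in Fkbp5lox/lox control and 258, 275 and 296 CPM in Fkbp5lox/lox ELS mice. In Fkbp5Nex control mice the values were 169, 260 and 266 CPM and in Fkbp5Nex ELS mice 249, 262 and 283 CPM. The value of 169 CPM was that of mouse 52, whose deviations followed gene length and in which Ntrk2, Sort1 and Ngfr were 0.28, 0.42 and 0.40 below and Bdnf 0.41 above their group means on the log2 scale. The exon lengths of these genes are 19292, 7569, 3446 and 6217 bases. The deviation in this mouse was -0.52 for Ntrk3 (30170 exon bases), 0.32 for Vgf (2973) and 0.15 for Ntf3 (1714). The part of gene length in these values was not tested. The log2 fold change of Ntrk3 was -0.06 for genotype (SE 0.03, adjusted p = 0.412, edgeR) and -0.11 among ELS mice (SE 0.04, 95% CI -0.19 to -0.02, adjusted p = 0.731, edgeR). Without the 3 mice these were -0.07 (SE 0.05) and -0.10 (SE 0.05). Without surrogate variables they were -0.09 (SE 0.06) and -0.06 (SE 0.08), and without both -0.04 (SE 0.04) and -0.05 (SE 0.06). For ELS it was 0.07 (95% CI -0.02 to 0.16) in Fkbp5lox/lox and -0.02 (95% CI -0.11 to 0.07) in Fkbp5Nex mice.

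Ngfr, the p75 receptor gene, had the fewest reads and the widest intervals after Ntf3. Its lowest, median and highest level was 1.40, 1.77 and 2.43 CPM in Fkbp5lox/lox control, 1.21, 1.70 and 2.10 CPM in Fkbp5lox/lox ELS, 0.773, 1.99 and 3.20 CPM in Fkbp5Nex control and 1.72, 2.33 and 2.68 CPM in Fkbp5Nex ELS mice. Both the lowest value, in mouse 12, and the highest, in mouse 42, came from the Fkbp5Nex control group. The log2 fold change for genotype was 0.14 (SE 0.13, 95% CI -0.13 to 0.42, adjusted p = 0.713, edgeR). Without the 3 mice it was 0.34 (SE 0.16, adjusted p = 0.424, edgeR), and 0.40 without surrogate variables as well (SE 0.14, adjusted p = 0.282, edgeR). On the linear scale the interval over all mice held factors from 0.91 to 1.34. For ELS Ngfr was -0.08 (95% CI -0.49 to 0.33) in Fkbp5lox/lox and 0.19 (95% CI -0.21 to 0.59) in Fkbp5Nex mice. Markers of oligodendrocytes were above 0 for genotype in 7 of 7 genes with 0 called (edgeR, median 0.15). Choroid plexus markers were below 0 in 4 of 4 tested genes (median -1.43) with 1 called lower. Of all genes, 0.136% were called for genotype in either direction. The summed choroid plexus level was 15.1 to 3430 CPM in Fkbp5Nex and 17.4 to 4620 CPM in Fkbp5lox/lox mice. The dentate gyrus markers, given above, were all below 0 for genotype. Within groups, Ngfr had r = 0.63 with the oligodendrocyte, 0.66 with the choroid plexus and -0.72 with the dentate gyrus score. Its r was -0.73 with the astrocyte and -0.70 with the microglia score. Between genotypes Ngfr had the sign of the oligodendrocyte markers and the opposite sign to the choroid plexus and dentate gyrus markers. The part of these markers in the Ngfr values was not tested.

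Sort1, the sortilin gene, had the most reads of the 7 genes, with 10956 to 17432 per mouse. Its lowest, median and highest level was 608, 681 and 743 CPM in Fkbp5lox/lox control, 645, 693 and 760 CPM in Fkbp5lox/lox ELS, 501, 705 and 845 CPM in Fkbp5Nex control and 661, 720 and 778 CPM in Fkbp5Nex ELS mice. The Fkbp5Nex control group held both the lowest and the highest mouse. The log2 fold change was 0.03 for genotype (95% CI -0.04 to 0.10) and 0.03 for ELS (95% CI -0.05 to 0.11). Within Fkbp5lox/lox and Fkbp5Nex mice the ELS value was 0.06 (95% CI -0.05 to 0.17) and 0.01 (95% CI -0.10 to 0.12). Without the 3 mice the genotype value was 0.09 (SE 0.04, adjusted p = 0.384, edgeR).

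Vgf, the neurotrophin-induced secreted precursor, showed the smallest unadjusted p of the 7 genes for the interaction. Its lowest, median and highest level was 96.1, 109 and 134 CPM in Fkbp5lox/lox control, 93.5, 121 and 155 CPM in Fkbp5lox/lox ELS, 73.9, 145 and 159 CPM in Fkbp5Nex control and 100, 131 and 148 CPM in Fkbp5Nex ELS mice. The median was thus higher with ELS in Fkbp5lox/lox mice and lower with ELS in Fkbp5Nex mice, within overlapping groups. The ELS log2 fold change was 0.12 (SE 0.06, 95% CI -0.02 to 0.25) in Fkbp5lox/lox and -0.08 (SE 0.06, 95% CI -0.22 to 0.05) in Fkbp5Nex mice. The test of the difference gave 0.20 (SE 0.09, 95% CI 0.02 to 0.38, unadjusted p = 0.0347, adjusted p = 0.999, edgeR), and Vgf was not called. For genotype the log2 fold change was 0.00 (95% CI -0.09 to 0.09) over all mice, 0.10 among control and -0.10 among ELS mice. Without surrogate variables these were 0.13 (SE 0.10), 0.23 (SE 0.14) and 0.03 (SE 0.14), and without the 3 mice as well 0.14 (SE 0.08), 0.31 (SE 0.11, unadjusted p = 0.00956, adjusted p = 0.36, edgeR) and -0.04 (SE 0.10). Leaving out Fkbp5Nex control mouse 12 took the interaction from 0.20 to 0.13. Without surrogate variables the interaction was also 0.20 but with an SE of 0.20, and without the 3 mice it was 0.16 (SE 0.12) with and 0.35 (SE 0.15) without surrogate variables.

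Across the 7 comparisons of the design, none of the 7 genes passed the threshold of an FDR of 0.02 in either direction. For genotype, 0 of 7 genes were called against 0.136% of all 16209 genes tested, for genotype in control mice 0 of 7 against 0.074%, and for genotype in ELS mice 0 of 7 against 0.0123%. For ELS, the interaction, ELS in Fkbp5lox/lox and ELS in Fkbp5Nex mice, 0 of 7 genes were called and 0% of all genes. At an unadjusted p below 0.05 the genotype comparison held 3 of 7 genes (Bdnf, Ntf3 and Ntrk3) against 11.4% of all genes, and ELS held 0 of 7 against 3.53%. The interaction held 1 of 7 (Vgf) against 3.95%, genotype in control mice 2 of 7 (Bdnf and Ntf3) against 8.78%, and genotype in ELS mice 1 of 7 (Ntrk3) against 6.3%. ELS in Fkbp5lox/lox and in Fkbp5Nex mice held 0 of 7 against 4.98% and 2.76%. These sets depended on the 3 mice that stood apart. Without them genotype held Ngfr (unadjusted p = 0.0406, edgeR) and Sort1 (0.0264) against 11.3% of all genes, and none of Bdnf (0.164), Ntf3 (0.0796) and Ntrk3 (0.151). Genotype in control mice then held Sort1 alone (8.19% of all genes), genotype in ELS mice Ngfr (0.0283) in place of Ntrk3 (0.0733), against 7.51%, and the interaction no gene (3.28%), with Vgf at 0.209. Without the 3 mice and without surrogate variables, genotype held Ntf3 and Ngfr (10.6% of all genes), genotype in control mice Ntf3, Ngfr, Sort1 and Vgf (10.5%), genotype in ELS mice none (4.11%) and the interaction Vgf (3.26%). Without surrogate variables 0 of 7 genes were called in any comparison, against 0.0185% of all genes for genotype. At an unadjusted p below 0.05 these fits held Ntf3 for genotype (1 of 7 against 6.63%) and for genotype in ELS mice (1 of 7 against 4.47%). They held 0 of 7 for ELS (3.84%), the interaction (2.05%), ELS in Fkbp5lox/lox (2.76%), ELS in Fkbp5Nex (3.06%) and genotype in control mice (4.23%). DESeq2's Wald test with the surrogate variables called 0 of 7 genes in each comparison, against 0.407% of all genes for genotype and 0.327% for genotype in control mice.

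**Figure D3:**
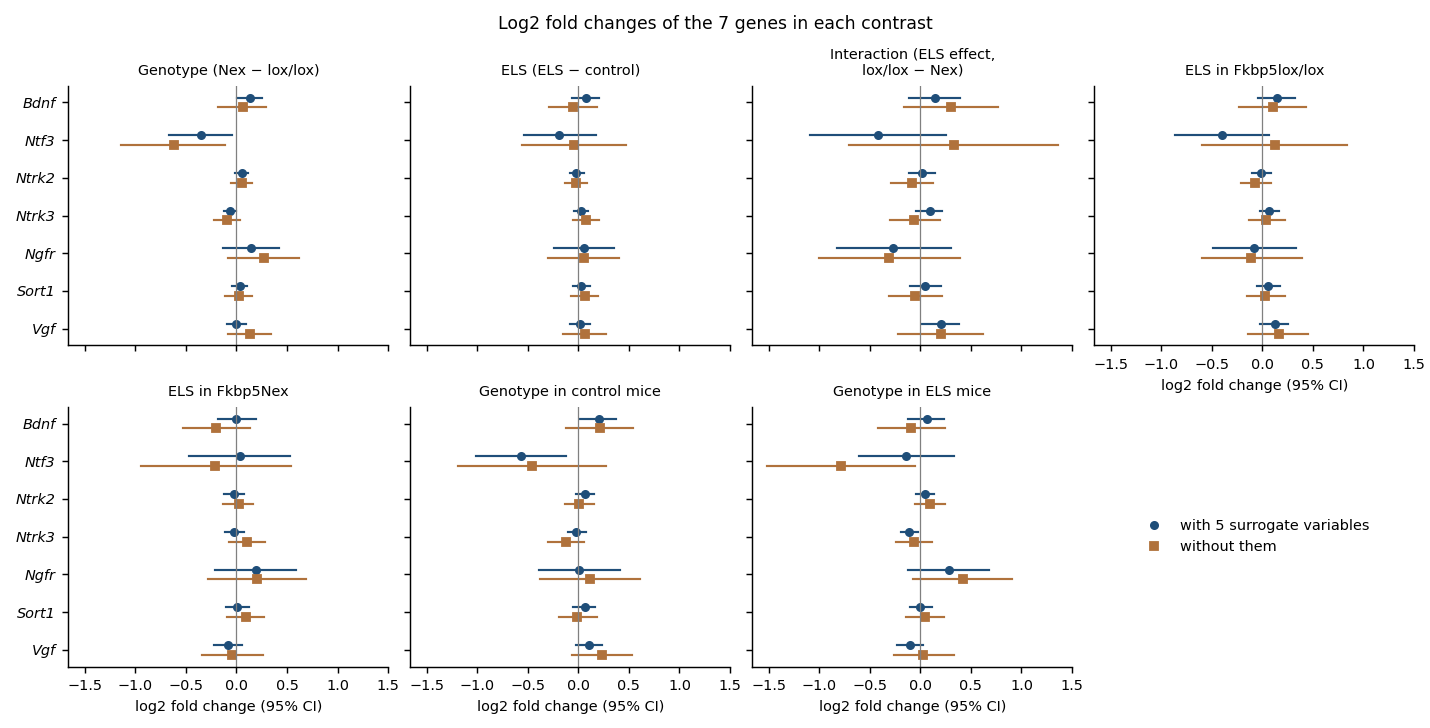
Log2 fold changes with 95% confidence intervals of the 7 genes in the 7 comparisons, with 5 surrogate variables (blue circles) and without (brown squares). Intervals of Ntrk2, Ntrk3 and Sort1 are narrow and those of Ntf3 and Ngfr wide, and the Ntf3 estimate for genotype lies at -0.35 with and -0.62 without surrogate variables.

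The wider neurotrophin pathway, 7 lists with 110 of 114 genes tested, likewise held no called gene in any comparison. Of all genes, 0.136% were called for genotype, 0.074% for genotype in control mice and 0.0123% for genotype in ELS mice. For the ELS comparisons and the interaction this share was 0%. For genotype, 10 of 110 genes (9.09%) had an unadjusted p below 0.05, 7 higher and 3 lower, against 11.4% of all genes. For ELS these were 6 of 110 (5.45%) against 3.53%, for the interaction 4 of 110 (3.64%) against 3.95% and for ELS in Fkbp5lox/lox mice 9 of 110 (8.18%) against 4.98%. ELS in Fkbp5Nex mice held 3 of 110 (2.73%) against 2.76%. Genotype in control mice held 7 of 110 (6.36%) against 8.78%, and genotype in ELS mice 6 of 110 (5.45%) against 6.3%. The smallest adjusted p was that of Shc1, an adaptor that couples Trk receptors to Ras signalling, with a log2 fold change of 0.22 for genotype (SE 0.05, adjusted p = 0.0586, edgeR). Among the 4 other Vps10p receptors, which share the sortilin fold, Sorcs1 was 0.27 (SE 0.10, adjusted p = 0.277) and Sorcs3 0.16 (SE 0.06, adjusted p = 0.286) for genotype in edgeR, and the list median was 0.06 against -0.002 over all genes. Of the genes of precursor cleavage and granule sorting (17 of 19 tested, median 0.05 for genotype), the convertases Furin (0.06, SE 0.06) and Pcsk1 (0.09, SE 0.08) and the plasminogen activator Plat (0.08, SE 0.05) had intervals that included 0 for genotype, whereas that of the convertase Pcsk6 did not (0.21, 95% CI 0.02 to 0.40, adjusted p = 0.403, edgeR). In the same list the granule protein gene Chgb had an ELS log2 fold change of 0.23 in Fkbp5lox/lox mice (SE 0.06, unadjusted p = 0.00119, adjusted p = 0.938, edgeR) and an interaction of 0.23 (SE 0.09, adjusted p = 0.999, edgeR). Among 14 partners of p75, Lingo1, a co-receptor of the Nogo receptor complex, was 0.23 for ELS in Fkbp5lox/lox mice (SE 0.08, adjusted p = 0.938, edgeR). Of 18 regulators of Bdnf transcription, the repressor Bhlhe40 was -0.16 (SE 0.05) and Creb1 -0.06 (SE 0.03) for genotype, with adjusted p = 0.201 and 0.392 (edgeR).

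Within groups, some of the 7 genes varied together with each other or with the marker scores of cell types and regions. The part of tissue composition in these relations was not tested. Each value was taken as the deviation from its group mean of log2 CPM over 24 mice, and p-values came from 100000 permutations within groups (two-sided). Of 21 pairs among the 7 genes, 1 had an adjusted p below 0.05. Ntf3 and Vgf were inversely related (Pearson's r = -0.76, permutation p = 0.00014, adjusted p = 0.00294, Spearman's rho = -0.67, permutation p = 0.00127, adjusted p = 0.0267), with r = -0.72 after leaving out the 2 mice farthest from the median of Ntf3 and r = -0.63 without the 3 mice named above. The receptors Ntrk2 and Ntrk3 had r = 0.63 (adjusted permutation p = 0.0799, rho = 0.36, adjusted permutation p = 0.29). This r was 0.25 without the 2 farthest mice, so it rested in part on them, and 0.45 without the 3 mice. Bdnf and Ntrk2 had r = -0.43 (adjusted permutation p = 0.175, rho = -0.35, adjusted permutation p = 0.29), which was -0.66 without the 2 farthest mice and -0.52 without the 3 mice. Two-way changes without the 3 mice also held for Sort1, whose r with Ntrk2 went from 0.04 to -0.64 and with Ngfr from 0.64 to 0.31. After the surrogate variables were regressed out, 0 of 21 pairs passed.

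Of 105 relations between the 7 genes and 15 marker scores, each score being the mean z-score of a marker list, 13 had an adjusted p below 0.05 by Pearson's r, 5 positive and 8 negative. The closest was that of Ntf3 with the dentate gyrus score (r = 0.89, permutation p = 1e-05, the smallest that the permutations can give, adjusted p = 0.00105, rho = 0.82, permutation p = 5e-05, adjusted p = 0.00525). It was 0.79 without the 2 mice farthest from the median score and 0.77 without the 3 mice. Bdnf was inversely related to the ventral hippocampus score (r = -0.74, permutation p = 0.00022, adjusted p = 0.0115, rho = -0.72, permutation p = 0.00062, adjusted p = 0.011), with r = -0.69 without the 2 farthest mice. Ntrk2 was positively related to the score of oligodendrocyte precursors (r = 0.64, adjusted permutation p = 0.0253, rho = 0.76, adjusted permutation p = 0.00892), with r = 0.59 without the 2 farthest mice. Ngfr was inversely related to the dentate gyrus score (r = -0.72, adjusted permutation p = 0.0195, rho = -0.71, adjusted permutation p = 0.011) and positively to the choroid plexus score (r = 0.66, adjusted permutation p = 0.025, rho = 0.66, adjusted permutation p = 0.0237). Its relations with the astrocyte (r = -0.73, rho = -0.61) and microglia (r = -0.70, rho = -0.66) scores were both -0.43 without the 2 farthest mice and so rested in part on them. Ngfr with the oligodendrocyte score had r = 0.63, but the rank correlation did not pass (rho = 0.55, adjusted permutation p = 0.0913), and the same held for Ngfr with the astrocyte score (adjusted permutation p = 0.052). Vgf was inversely related to the astrocyte score (r = -0.75, adjusted permutation p = 0.0171, rho = -0.67, adjusted permutation p = 0.0157). With the dentate gyrus score Vgf had r = -0.70 and rho = -0.51 (adjusted permutation p = 0.0295 and 0.0974), and r was -0.39 without the 2 farthest mice. Without the 3 mice this r was -0.46. That of Ngfr was then -0.51 with the dentate gyrus, -0.44 with the astrocyte and -0.48 with the microglia score. Ntf3 was also related to the choroid plexus (r = -0.63, rho = -0.70), oligodendrocyte (r = -0.56, rho = -0.66) and astrocyte (r = 0.56, rho = 0.66) scores, with r of -0.58, -0.44 and 0.34 without the 2 farthest mice. None of the relations of Ntrk3 passed by either coefficient. Sort1 passed by rank only, with the score of CA2 and CA3 (r = 0.61, adjusted permutation p = 0.0505, rho = 0.72, adjusted permutation p = 0.00971) and with that of excitatory neurons (r = 0.51, adjusted permutation p = 0.0866, rho = 0.68, adjusted permutation p = 0.011). Without the 2 farthest mice these r were 0.49 and 0.51, and without the 3 mice 0.85 and 0.86. Some relations that did not pass were also stronger without the 3 mice. Bdnf with the score of CA2 and CA3 went from 0.26 to 0.65, and Sort1 with the ventral hippocampus score from -0.14 to -0.69. With the surrogate variables regressed out 4 of 105 passed, and Ntf3 with the dentate gyrus score had r = 0.56 (adjusted permutation p = 0.0521), while Bdnf with the ventral hippocampus score had 0.26, of the opposite sign. Marker scores of the same punch are related to each other, so these 13 relations are not 13 separate patterns.

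**Figure D4:**
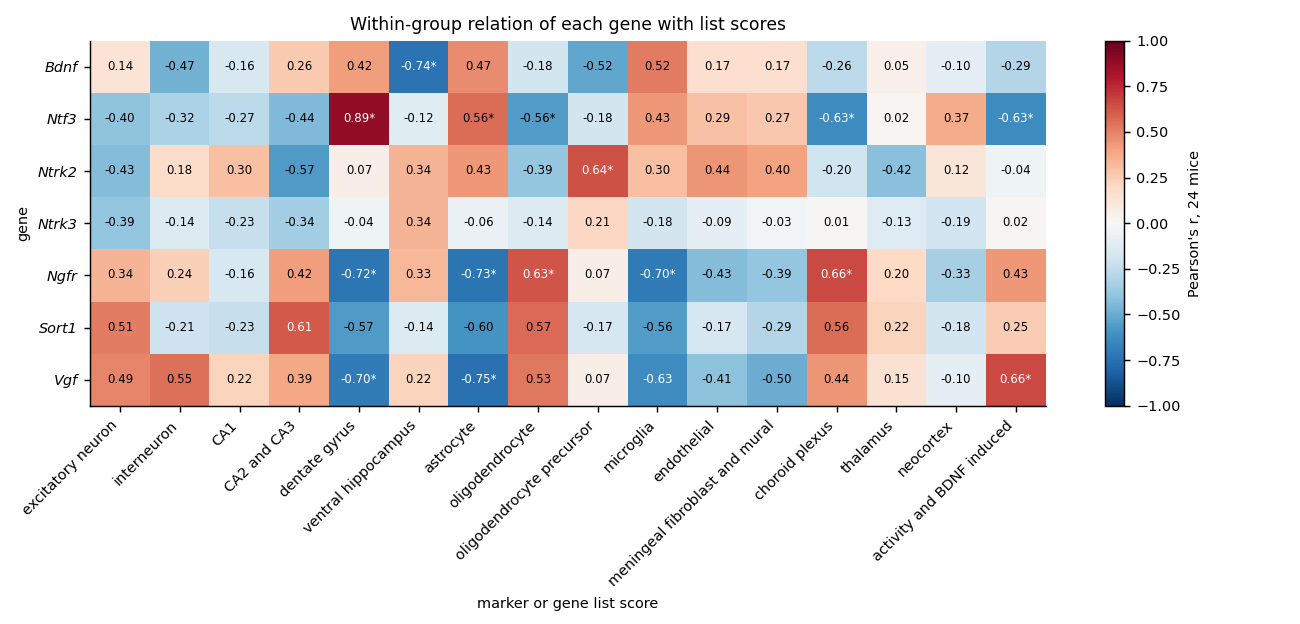
Pearson's r over 24 mice between within-group deviations of each gene (rows) and of 15 marker scores and the score of the activity and BDNF induced genes (columns). An asterisk marks an adjusted permutation p below 0.05, and the strongest cell is Ntf3 with the dentate gyrus score at 0.89. The list of cholinergic neurons is left out because 1 of its 4 genes was tested.

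**Figure D5:**
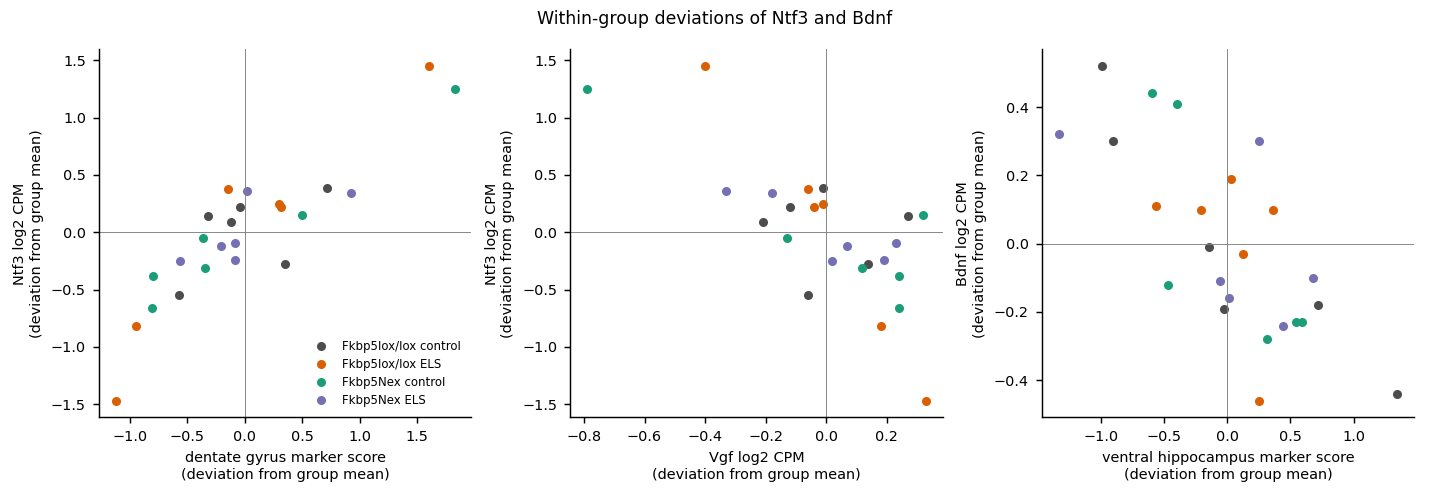
Deviations from the group mean of Ntf3 against the dentate gyrus score (left), of Ntf3 against Vgf (middle) and of Bdnf against the ventral hippocampus score (right), in log2 CPM or score units, with 1 point per mouse and colours for groups. Ntf3 follows the dentate gyrus score (r = 0.89) and runs against Vgf (r = -0.76), with Fkbp5lox/lox ELS mouse 8 and Fkbp5Nex control mouse 12 at the upper end, and Bdnf runs against the ventral score (r = -0.74).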

How the data were processed

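Hippocampal punches of 24 female mice were sequenced. The deposited values are unnormalized counts of reads per gene, which the authors supplied without a filter. Their sequencing provider had removed reads with adaptors, poly-N or low quality, aligned read pairs with HISAT2 2.0.5 and counted them with featureCounts 1.5.0-p3. The genome build, annotation and strand setting are not given in the sources used here. Groups were taken from the sample labels, and each column was matched to its mouse by number. Before their own tests the authors left out a sample as an outlier on the first principal component. That sample is not named, and all 24 mice were kept here.

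A gene was tested if all 6 mice of 1 or more groups had 10 counts or more (16209 of 46983 genes). Counts were scaled by TMM, and edgeR 4.0.16 quasi-likelihood tests (R 4.3.3) used 4 group means and 5 surrogate variables (sva 3.50.0), with Benjamini-Hochberg adjustment over all genes and an FDR of 0.02. The interaction is the ELS effect in Fkbp5lox/lox minus that in Fkbp5Nex mice. Intervals are 95% confidence intervals, and SEs were derived from the F statistic. DESeq2 1.42.0 was an alternative. The deposited table held no gene lengths, so exon lengths and positions were read from the GENCODE vM21 annotation of GRCm38, in which 46488 of the Ensembl identifiers were found. Correlations were computed in Python 3.11.15 with scipy 1.17.1. The tests were checked on simulated data.

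The 7 genes, the pathway lists and the marker lists were chosen with earlier results of these data known. Genes named besides the 7 were Fkbp5, a fixed set of relatives (Ntf5, Sorl1, Sorcs1, Sorcs2, Sorcs3, Furin, Pcsk1 and Plat), for each list and comparison those called or else the 2 with the smallest p, and for each of the 7 genes the 3 genes with the most similar deviations. Some genes of that set are not reported here. The 3 mice that stood apart were left out in refits chosen after seeing the data.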

Additional observations from a re-analysis of the deposited data

Results flagged for a closer look

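Among 28 sets of 6 mice (7 genes in 4 groups), 2 held a mouse far from the others by Dixon's ratio, where chance alone marks about 5% of sets. Bdnf was 5.06 log2 CPM in Fkbp5lox/lox ELS mouse 68, against 5.49 to 5.71 in the other 5 mice of the group (ratio 0.67). Without this mouse the ELS log2 fold change of Bdnf in Fkbp5lox/lox mice was 0.18 in place of 0.14. Ntrk3 was 7.41 log2 CPM in Fkbp5Nex control mouse 52, against 8.00 to 8.06 in the other 5 mice (ratio 0.92), and this is the mouse whose deviations followed gene length.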

How the results depend on the processing

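No analysis paired by litter was possible because the labels do not give the litter of each mouse. In every alternative run, which were no surrogate variables, DESeq2 size factors, 2 other filters, DESeq2's Wald test, an FDR of 0.05, the 12 compared mice alone, each of 24 mice left out and the 3 mice left out, 0 of the 7 genes were called. Refits of all mice and of the 12 compared mice alone were counted together. In these, 252 of 273 log2 fold changes had the same direction and 21 the opposite. With 1 mouse left out these were 1102 and 74 of 1176, all of values that were not called. The cause was not tested. Without surrogate variables the sign changed for Bdnf in ELS (-0.05), ELS in Fkbp5Nex (-0.20) and genotype in ELS mice (-0.09), for Ntf3 in the interaction (0.33), ELS in Fkbp5lox/lox (0.12) and ELS in Fkbp5Nex (-0.21), for Ntrk2 in the interaction (-0.08) and ELS in Fkbp5Nex (0.02), for Ntrk3 in the interaction (-0.06) and ELS in Fkbp5Nex (0.10), for Sort1 in the interaction (-0.05) and genotype in control mice (-0.01), and for Vgf in genotype in ELS mice (0.03). With filterByExpr it changed for Vgf in genotype (-0.04) and Bdnf in ELS in Fkbp5Nex (-0.01), and with no filter for Vgf in genotype (-0.06), Ntrk2 in the interaction (-0.0001), and Bdnf (-0.01) and Ntrk3 (0.0045) in ELS in Fkbp5Nex. With the 12 compared mice it changed for Bdnf (-0.10) and Ntrk3 (0.05) in ELS in Fkbp5Nex. Without the 3 mice it changed for Vgf in genotype (-0.04), Ngfr in ELS (-0.01) and Sort1 in ELS in Fkbp5Nex (-0.02). Without them and without surrogate variables it changed for Bdnf in genotype (-0.05), genotype in control (-0.04) and in ELS mice (-0.06), Ngfr in ELS (-0.08), the interaction (0.04) and ELS in Fkbp5Nex (-0.10), Sort1 in ELS (-0.00059) and ELS in Fkbp5Nex (-0.06), Ntrk2 in the interaction (-0.04) and Ntrk3 in ELS in Fkbp5Nex (0.02). Leaving out 1 mouse at a time gave ranges across 0 for genotype in Sort1 (-0.02 to 0.09) and Vgf (-0.05 to 0.03), for ELS in Bdnf (-0.03 to 0.10), Ngfr (-0.02 to 0.17), Sort1 (-0.0028 to 0.05) and Vgf (-0.01 to 0.06), and for the interaction in Bdnf (-0.04 to 0.21), Ntrk2 (-0.01 to 0.04) and Sort1 (-0.05 to 0.11). The same held for ELS in Fkbp5lox/lox in Bdnf (-0.05 to 0.18), Ntrk2 (-0.03 to 0.02), Ngfr (-0.17 to 0.10) and Sort1 (-0.01 to 0.09), and for ELS in Fkbp5Nex in Bdnf (-0.05 to 0.10), Ntf3 (-0.09 to 0.18), Ntrk3 (-0.05 to 0.02) and Sort1 (-0.05 to 0.07). It also held for genotype in control mice in Ntrk3 (-0.06 to 0.02), Ngfr (-0.06 to 0.20) and Sort1 (-0.01 to 0.12), and for genotype in ELS mice in Ntf3 (-0.37 to 0.19) and Sort1 (-0.04 to 0.06). Of the values that kept their sign, genotype ranged from 0.07 to 0.19 in Bdnf, -0.47 to -0.17 in Ntf3 and 0.04 to 0.27 in Ngfr, genotype in control mice from 0.05 to 0.26 in Bdnf, and the interaction from 0.13 to 0.27 in Vgf.

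Over all genes, the count called for genotype was 22, but 47 at an FDR of 0.05, 66 with DESeq2's Wald test, 3 without surrogate variables, 3 without the 3 mice, 5 without both, and 6 (without Fkbp5lox/lox control mouse 74) to 35 (without Fkbp5Nex control mouse 54) when 1 mouse was left out. For genotype in control mice it was 12, but 30, 53, 2, 1 and 2 in the same order, 7 with either other filter, 1 with the 12 compared mice and 2 to 14 with 1 mouse left out. For genotype in ELS mice it was 2, but 4 with DESeq2. ELS in Fkbp5lox/lox mice gave 0 in edgeR and 1 in DESeq2.

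With the longest coding transcript, Bdnf moved to 10.8, Ntrk2 to 61.7, Ntrk3 to 13.3 and Sort1 to 102 RPKM, while DESeq2 size factors kept every level within 1 SD. Relations kept their counts with variance-stabilised values (1 of 21 and 13 of 105). With the surrogate variables regressed out, 0 of 21 and 4 of 105 passed. Bdnf with the ventral hippocampus score then had r = 0.26, Ntf3 with the astrocyte score -0.22, Ngfr with the oligodendrocyte score -0.11 and Ntf3 with the choroid plexus score 0.15, all of opposite sign, while Ntf3 with the dentate gyrus score had 0.56 (adjusted permutation p = 0.0521) and Ntrk2 with the precursor score 0.69. Depth limits Ngfr most, with 17 to 62 reads per mouse.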

Other observations

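Genes that neuronal activity and BDNF induce (20 genes, among them Arc, Fos, Egr1, Nr4a1 and Homer1) were scored in the same way as the marker lists, a score added after seeing the data. Vgf, itself a gene of this kind but not in the list, was positively related to the score within groups (r = 0.66, permutation p = 0.00145, adjusted p = 0.00679 over 7 genes, rho = 0.64, n = 24), and it was 0.53 without the 3 mice that stood apart. Ntf3 ran against the score (r = -0.63, adjusted permutation p = 0.00679, rho = -0.52, for which the adjusted permutation p was 0.0619), whereas Bdnf had r = -0.29 and Ntrk2 r = -0.04. With the surrogate variables regressed out 0 of 7 relations passed, and r was 0.40 for Vgf and -0.30 for Ntf3. No gene of this list was called in any comparison by edgeR. Of all genes, 0.136% were called for genotype, 0.074% for genotype in control mice and 0.0123% for genotype in ELS mice. The share was 0% for the ELS comparisons and the interaction. At an unadjusted p below 0.05 there were 1 of 20 for genotype, against 11.4% of all genes. For ELS in Fkbp5lox/lox mice there were 2 of 20, against 4.98%. The median log2 fold change of the list between genotypes was 0.05 and that of ELS 0.01, against -0.002 and 0.003 over all genes.

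The genes whose deviations were most like those of each of the 7 genes were found among 16208 others over 24 mice, as a description. For Bdnf these were Tpm1 (r = 0.87), Shroom2 (0.86) and Ypel5 (0.84), and for Ntf3 Sec1 (0.95), Capn3 (0.92) and F730043M19Rik (0.92). Ntrk2 was nearest to Fgd6 (0.90), Utrn (0.89) and Farp1 (0.87), and Ntrk3 to Tmem245 (0.93), Ppargc1b (0.92) and Whsc1l1 (0.92). Ngfr was nearest to Adpgk (0.89), Ppp2r5e (0.85) and Fam196a (0.83), and Sort1 to Rims1, Kif3c and Rapgef2 (0.93 each), of which Rims1 organises the presynaptic active zone. Vgf was nearest to Eno2 (0.95), the neuronal enolase, Magee1 (0.93) and Habp4 (0.92). After the surrogate variables were regressed out, the r of the first of each trio was 0.31 for Tpm1, 0.84 for Sec1, 0.76 for Fgd6, 0.50 for Tmem245, 0.71 for Adpgk, 0.74 for Rims1 and 0.80 for Eno2.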
